A study of Mus musculus with 27 samples.

Results

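The sarcomeric myosin light chains are described here in C2C12 cells, an established mouse myoblast line that fuses into muscle fibers, after the transcription factor NFIA was introduced. Of the 24825 genes in the deposited FPKM files, 7 were taken by gene symbol, and all 7 were found. They are the essential light chains Myl1, Myl3, Myl4 and Myl6b, the regulatory light chains Mylpf and Myl2, and Mylk2, the kinase of skeletal muscle that phosphorylates the regulatory chain. FPKM is the number of fragments per kilobase of transcript, scaled to the total fragments of the sample, so levels of different genes can be set side by side.

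Polyadenylated RNA was sequenced from control cells, cells with full-length NFIA and cells with the Δpro#3 mutant. The mutant lacks only pro#3, the C-terminal end of the proline-rich domain of NFIA. Samples came from day 0, from day 7 and from day 7 with 10 µM forskolin (which raises cyclic AMP) added for 4 h. This gave 9 groups of 3 replicates (27 samples). Day 0 was before differentiation. Per the sample labels, confluent cells then received an adipogenic cocktail that held isobutylmethylxanthine, indomethacin, dexamethasone, insulin, T3 and rosiglitazone for 48 h, followed by insulin, T3 and rosiglitazone, so at day 7 control cells, too, had been in a medium made for fat cells. Both forms of NFIA came from a retroviral vector and carried a FLAG tag, so their level was set by the vector. The labels do not say whether the replicates were separate infections or cultures, and the p-values measure the spread between these samples, which may be technical.

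A muscle myosin molecule is built from heavy chains that carry the motor and from light chains that wrap the lever arm of each head. Each head binds an essential chain, which stiffens the lever arm, and a regulatory chain, whose phosphorylation moves the heads of skeletal muscle towards the thin filament. Myl1 and Mylpf are the chains of fast skeletal muscle, Myl2 and Myl3 those of slow muscle and the ventricle of the heart, and Myl4 that of embryonic muscle and the atrium. Myl6b is an essential chain of slow skeletal muscle that is also found outside muscle. Light chain genes are turned on when myoblasts leave the cell cycle and fuse, under the myogenic bHLH factors (MyoD, myogenin and their relatives), which bind the E-box CANNTG.

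On the NCBI Build 37 (mm9) assembly, with the GENCODE annotation of that build, Myl1 lies at chr1:66970869-66991978 on the minus strand, Mylpf at chr7:134355122-134357812 on the plus strand and Myl4 at chr11:104411977-104457067 on the plus strand. Myl6b lies at chr10:127931213-127935741 on the minus strand, 281 bases upstream of Myl6, the essential chain of smooth muscle and other cells. Myl2 lies at chr5:122550960-122563481, Myl3 at chr9:110666150-110672308 and Mylk2 at chr2:152737088-152748804, all 3 on the plus strand. None of the 7 overlapped another annotated gene on its own strand, and the libraries were stranded and counted on the matched strand (Ccdc63 overlaps Myl2, and 3 predicted genes overlap Myl4, on the opposite strand). Myl1 has 4 protein-coding transcripts whose outermost starts are 10051 bases apart and Myl4 has 5 over 34301 bases, so the FPKM of these genes sum transcripts from several starts.

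Among the members, the promoters of the essential and the regulatory chain most abundant in control cells (Myl1 and Mylpf) and of the essential chain highest with full-length NFIA at day 0 (Myl6b) are printed as the 250 bases before the start listed by RefSeq on GRCm38.p6, on the strand of the gene, with every match to the E-box CANNTG in capitals.
Myl1 at chr1:66945057-66945306, minus strand: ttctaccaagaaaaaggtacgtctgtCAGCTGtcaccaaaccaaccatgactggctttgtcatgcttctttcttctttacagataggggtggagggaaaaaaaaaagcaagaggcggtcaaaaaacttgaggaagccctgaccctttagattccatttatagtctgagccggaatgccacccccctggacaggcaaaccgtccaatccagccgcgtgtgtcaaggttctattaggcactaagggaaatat
Mylpf at chr7:127211358-127211607, plus strand: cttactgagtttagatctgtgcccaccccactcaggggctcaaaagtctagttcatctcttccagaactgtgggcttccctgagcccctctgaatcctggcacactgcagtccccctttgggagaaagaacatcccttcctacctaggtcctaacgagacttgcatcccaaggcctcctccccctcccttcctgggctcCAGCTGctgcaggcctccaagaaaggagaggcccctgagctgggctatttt
Myl6b at chr10:128498686-128498935, minus strand: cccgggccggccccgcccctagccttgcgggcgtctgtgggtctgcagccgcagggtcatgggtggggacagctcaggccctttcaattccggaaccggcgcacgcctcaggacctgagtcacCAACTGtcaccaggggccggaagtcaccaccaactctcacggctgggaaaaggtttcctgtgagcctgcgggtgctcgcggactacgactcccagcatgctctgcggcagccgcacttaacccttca

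The E-box of Myl1 begins 224 bases before the start and that of Mylpf 51 bases before it, and both read CAGCTG, a form that myogenic factors bind. The E-box of Myl6b begins 127 bases before the start. Of the 6 members in the promoter table, Myl3 had an E-box at 189 bases before its start, and Myl2, with a pair of listed starts, had 1 before the first and 2 before the second. The window before the listed start of Myl4 held no match to the motifs searched, and Mylk2 was not in the table. CANNTG was present in 66.2% and CAGCTG in 13.0% of 32851 RefSeq promoter windows of the same length. The half-site of NFI factors, TTGGC on either strand, was in 41.5% of all windows, and among the members it was found once, in the window of Myl3, 93 bases before the start. The palindromic NFI site (TTGGC, 5 bases of any kind, GCCAA) was in 0.0365% of all windows and in none of the members' windows. The motifs of MEF2 (2.92% of windows) and serum response factor (CArG, 1.47%) were also searched, and among the members only the CArG motif was found, in Myl3. These matches are letters in 1 window per start and carry no measurement of binding.

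The depth ranged from 9567769 to 27230965 fragments per sample with a median of 17707223, and the fragments behind each value were worked back from the FPKM (100% of the values were whole within 0.05 fragments). The level of Nfia, which checks the construct, was 225 to 250.2 FPKM with full-length NFIA and 397 to 423 with the Δpro#3 mutant at day 0, 457 to 528 and 374 to 480 at day 7, and 497 to 594 and 262 to 344 with forskolin. The form with the higher mean level thus changed between the days, though the samples of both forms overlapped at day 7. The part of this level in the differences between both forms was not tested. In control cells it was 0.0885 to 0.879 FPKM in 8 samples and 7.35 in replicate 2 of day 0. The 7 markers of muscle cells (Myod1, Myf5, Myog, Des, Cdh15, Ckm and Acta1) were all at 1 FPKM or more in control cells, whereas the leukocyte markers (Ptprc, Adgre1 and Cd3e) summed to at most 0.159 FPKM and the endothelial markers (Pecam1, Cdh5 and Kdr) to at most 1.39 FPKM in any sample. Myl7, the atrial regulatory chain, was at 0 in 8 of the 9 groups.

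At day 0, Myl1, Myl4, Myl6b and Mylpf were on in control cells, and both forms of NFIA lowered these 4. Myl1 was at 87.3, 79.6 and 78.3 FPKM in the control samples, at 0.527, 0.321 and 0.398 with full-length NFIA and at 8.80, 8.94 and 8.17 with the Δpro#3 mutant. The 3 groups did not overlap, and the mutant samples lay between the others. Mean Myl1 was 197-fold lower with full-length NFIA and 9.47-fold lower with the mutant than in control cells. Mylpf, the regulatory partner of Myl1 and the highest member in control and mutant cells at this time, was at 370, 317 and 332 FPKM in control cells, at 1.98, 1.67 and 1.75 with full-length NFIA and at 16.0, 21.1 and 18.2 with the mutant. Its mean was 189-fold and 18.4-fold lower, respectively, again with no overlap among the groups.

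The embryonic chain Myl4 was at 35.2, 29.5 and 34.1 FPKM in control cells, 1.14, 1.68 and 1.54 with full-length NFIA and 3.49, 2.54 and 3.02 with the mutant. Its mean was 22.6-fold and 10.9-fold lower, and the groups did not overlap. Myl6b fell least among the tested light chains, from 21.8 ± 0.905 FPKM (mean ± SD, n = 3) in control cells to 4.04 ± 0.318 (full-length NFIA) and 6.58 ± 0.722 (mutant). The kinase Mylk2 was low throughout, with 2.68 ± 0.177 FPKM in control cells, 0.566 ± 0.148 with full-length NFIA and 0.805 ± 0.0441 with the mutant (n = 3 each). Myl2 and Myl3 were nearly silent: Myl2 had 1 fragment in each group of 3 samples, and Myl3 had none in control cells, which allows up to 0.0434 FPKM (3 fragments over the 3 samples), and 1 fragment with each form of NFIA. These limits cover counting error only.

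**Figure D1:**
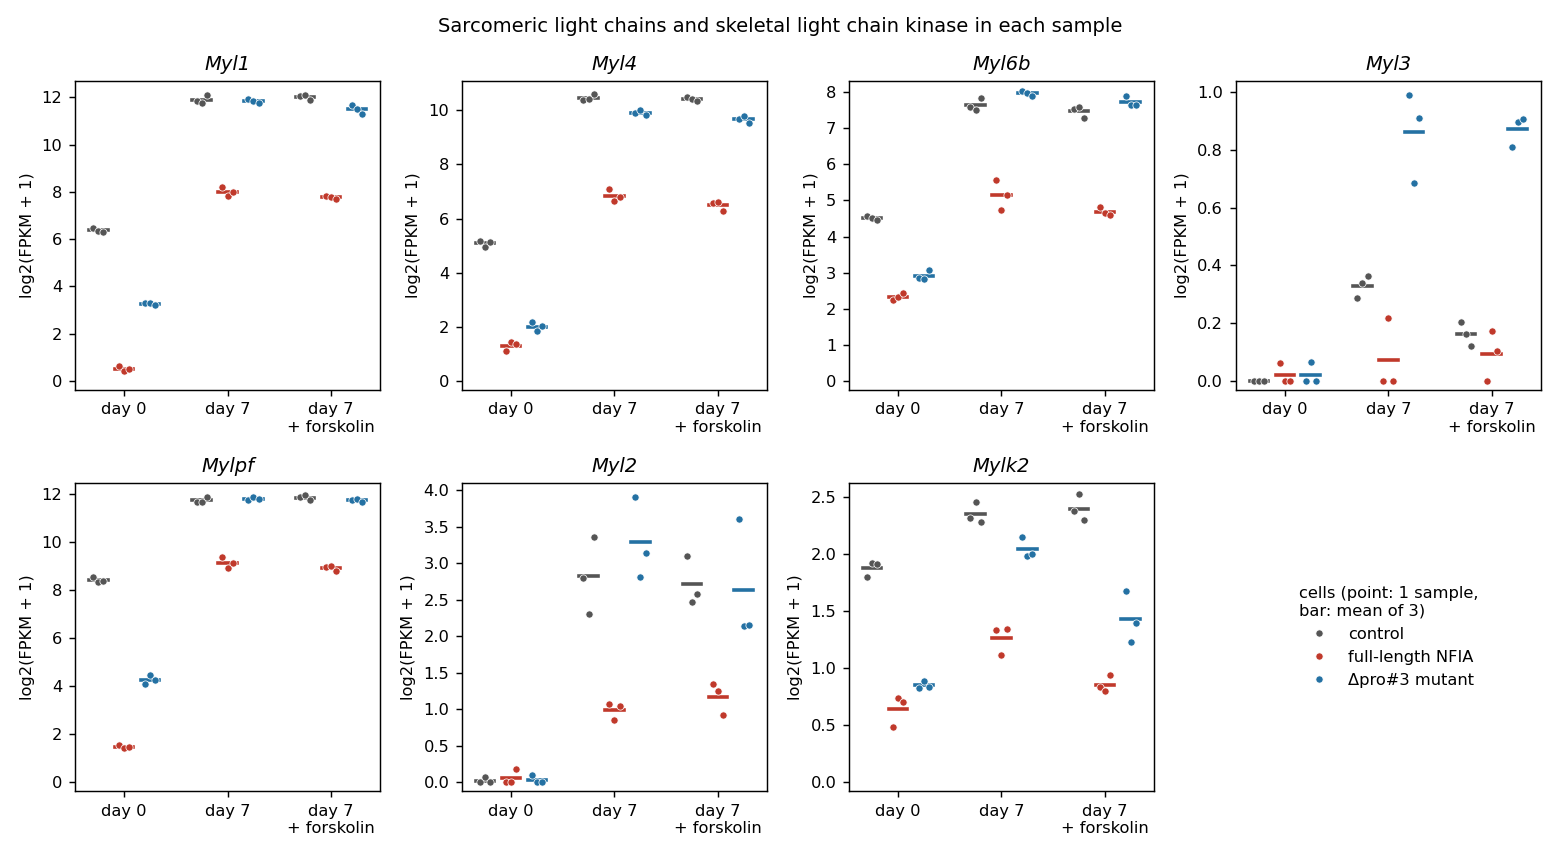
Levels of the 7 genes as log2(FPKM + 1) at day 0, day 7 and day 7 with forskolin, in control cells (gray), cells with full-length NFIA (red) and cells with the Δpro#3 mutant (blue); a point is 1 sample and a bar the mean of 3. At day 0 both forms lie below control for Myl1, Myl4, Myl6b, Mylpf and Mylk2, whereas at day 7 the blue points of Myl1 and Mylpf overlap the gray ones and the red points stay below.

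A gene was called when its FPKM + 1 differed over 3-fold between groups with an adjusted p below 0.05, in a limma fit of the 9 samples of a time point over genes with a mean of at least 0.5 FPKM, with Benjamini-Hochberg adjustment over all of them. Fold changes on this scale understate those of low genes. At day 0, 5 members were tested, and full-length NFIA lowered 4 of them (Myl1, Myl4, Myl6b and Mylpf), where 2.78% of all 12105 genes tested were called lower. The log2 fold changes were −5.87 ± 0.0615 (SE) for Myl1, −6.93 ± 0.0895 for Mylpf, −3.79 ± 0.106 for Myl4 and −2.18 ± 0.0692 for Myl6b, with limma adjusted p-values from 1.496e-13 to 3.38e-10. The Δpro#3 mutant lowered the same 4, against 1.32% of all genes, by −3.10 ± 0.0615, −4.14 ± 0.0895, −3.08 ± 0.106 and −1.60 ± 0.0692 in the same order. Myl6b is at the edge of this call: without replicate 1 of control cells, or without replicate 1 or 2 of the mutant, its change was −1.57, −1.57 and −1.55, just short of 3-fold. Mylk2 had log2 fold changes of −1.23 ± 0.0760 and −1.03 ± 0.0760 (limma adjusted p = 7.77e-08 and 7.03e-07), short of 3-fold on this scale. With a pseudocount of 0.1 in place of 1, its values were −2.08 and −1.62, and it was called with both forms.

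The markers of cell types also differed at day 0. The muscle markers summed to 1074 to 1097 FPKM in control cells, 150.1 to 159 with full-length NFIA and 458 to 468 with the mutant. Of these 7, 6 and 3 were called lower, where 2.78% and 1.32% of all genes were. The adipocyte markers summed to 33.9 to 41.3, 391 to 425 and 302 to 321 FPKM, and 3 of 3 tested were called higher with both forms, where 2.46% and 0.859% of all genes were. Of the 6 listed, 2 were at 1 FPKM or more in control cells and 3 with each form. A marker may thus have entered the test through the cells with NFIA. The part of the marker differences at day 0 in the light chain values was not tested.

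Both forms of NFIA were also compared directly. At day 0, Myl1 and Mylpf were called higher in mutant cells than in those of the full-length form, by 2.77 ± 0.0615 and 2.79 ± 0.0895 (limma adjusted p = 9.95e-11 and 1.11e-09), where 0.925% of all genes were called higher. Of mean FPKM, this was 20.8-fold for Myl1 and 10.3-fold for Mylpf. Myl4 and Myl6b differed by 0.71 ± 0.106 and 0.59 ± 0.0692 (limma adjusted p = 0.000149 and 2.54e-05), which is under 3-fold, and Mylk2 by 0.21 (95% confidence interval 0.0400 to 0.38). Over the 5 tested members, full-length NFIA had a median log2 fold change of −3.79 and the mutant one of −3.08, and over all genes these were 0.00826 and 0.00952.

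After 7 days, light chain RNA had risen in all 3 cell types. Full-length NFIA lowered 5 of 6 tested members, among them Myl2, which was too low to be tested at day 0. None was called different between mutant and control cells. Myl1 was at 3653, 3456 and 4419 FPKM in control cells, 296, 226 and 254 with full-length NFIA and 3934, 3682 and 3477 with the mutant. Control and mutant samples overlapped, and every sample with full-length NFIA was below both. Mylpf was at 3216, 3173 and 3738 FPKM in control cells, 652, 485 and 558 with full-length NFIA and 3413, 3680 and 3502 with the mutant, in the same arrangement. The light chains together took 0.891% ± 0.0985 of all fragments in control cells, 0.0919% ± 0.0141 with full-length NFIA and 0.839% ± 0.0308 with the mutant (SD, n = 3).

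The embryonic chain Myl4 was lower with the mutant than in control cells, though by less than 3-fold. It was at 1348, 1361 and 1563 FPKM in control cells, 137, 99.3 and 109 with full-length NFIA and 959, 1038 and 909 with the mutant. All 3 mutant samples were below all control samples, with a mean 1.47-fold lower. Myl6b was at 192, 182 and 226 FPKM in control cells, 46.8, 25.4 and 34.6 with full-length NFIA and 259, 254 and 236 with the mutant. Here the mutant samples lay just above the control samples, which they did not overlap, but the difference did not pass the test. Mylk2 was at 4.11 ± 0.341 FPKM in control cells, 1.41 ± 0.211 with full-length NFIA and 3.14 ± 0.272 with the mutant (SD, n = 3).

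Myl2 and Myl3, at no more than 1 fragment per group at day 0, were found at low levels at day 7. Myl2 was at 5.95, 3.95 and 9.28 FPKM in control cells, 1.11, 0.807 and 1.06 with full-length NFIA and 14.0, 6.06 and 7.85 with the mutant. Its control and mutant samples overlapped and varied more than those of any other tested member. Myl3 was at 0.219, 0.265 and 0.285 FPKM in control cells (10 fragments in all), at 0, 0.162 and 0 with full-length NFIA (3 fragments) and at 0.985, 0.609 and 0.880 with the mutant (36 fragments). All 3 mutant samples were above all control samples. The ratio of mutant to control fragments, relative to depth, was 3.09 (95% counting interval 1.504 to 6.99), and after forskolin it was 6.69 (2.84 to 19.2, from 43 and 6 fragments). Myl3 did not reach the 0.5 FPKM needed to enter the test, and the exact permutation test of 3 against 3 samples gave p = 0.1 (2-sided) at both times, the smallest it allows. Without the filter on low values, limma gave an adjusted p of 0.00183 at day 7 and 2.31e-05 after forskolin, with differences of 0.53 and 0.71 on the log2(FPKM + 1) scale, under 3-fold.

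Of 6 members tested at day 7, full-length NFIA lowered 5, and Mylk2 was the one not called. Of all 12324 genes, 3.3% were called lower. The log2 fold changes against control cells were −3.89 ± 0.117 for Myl1, −3.63 ± 0.113 for Myl4, −2.58 ± 0.109 for Mylpf, −2.49 ± 0.175 for Myl6b and −1.83 ± 0.291 for Myl2, with limma adjusted p-values from 1.30e-09 to 0.000231. The call of Myl2 was lost without replicate 3 of control cells (−1.56, limma adjusted p = 0.000979), where it fell short of 3-fold. Mylk2 changed by −1.08 ± 0.0909 (limma adjusted p = 1.93e-06), and with limma-voom it was called too (−1.61, adjusted p = 4.82e-07). For the mutant, limma called 0 of 6 members in either direction, where 0.503% of all genes were called lower and 0.933% higher. At an unadjusted p under 0.05 there were 2, Myl4 and Mylk2, which also held after adjustment, and limma-voom on fragments called 0 as well. Their differences were −0.55 ± 0.113 (limma adjusted p = 0.00261) for Myl4 and −0.30 ± 0.0909 (limma adjusted p = 0.0189) for Mylk2. The 95% confidence interval of the difference was −0.31 to 0.21 for Myl1, −0.18 to 0.31 for Mylpf, −0.0650 to 0.71 for Myl6b and −0.18 to 1.12 for Myl2. The small difference of Myl1 changed from −0.0493 to 0.0115 when samples were scaled by the median ratio. Against full-length NFIA, the mutant was called higher for 5 of 6 members, by 3.84 ± 0.117 for Myl1, 3.07 ± 0.113 for Myl4, 2.82 ± 0.175 for Myl6b, 2.65 ± 0.109 for Mylpf and 2.30 ± 0.291 for Myl2, where 2.6% of all genes were called higher. The difference of Mylk2 was 0.78 ± 0.0909. Over the 6 tested members, full-length NFIA had a median log2 fold change of −2.54 against control and the mutant one of 0.00956, beside −0.0802 and −0.0368 over all genes.

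**Figure D2:**
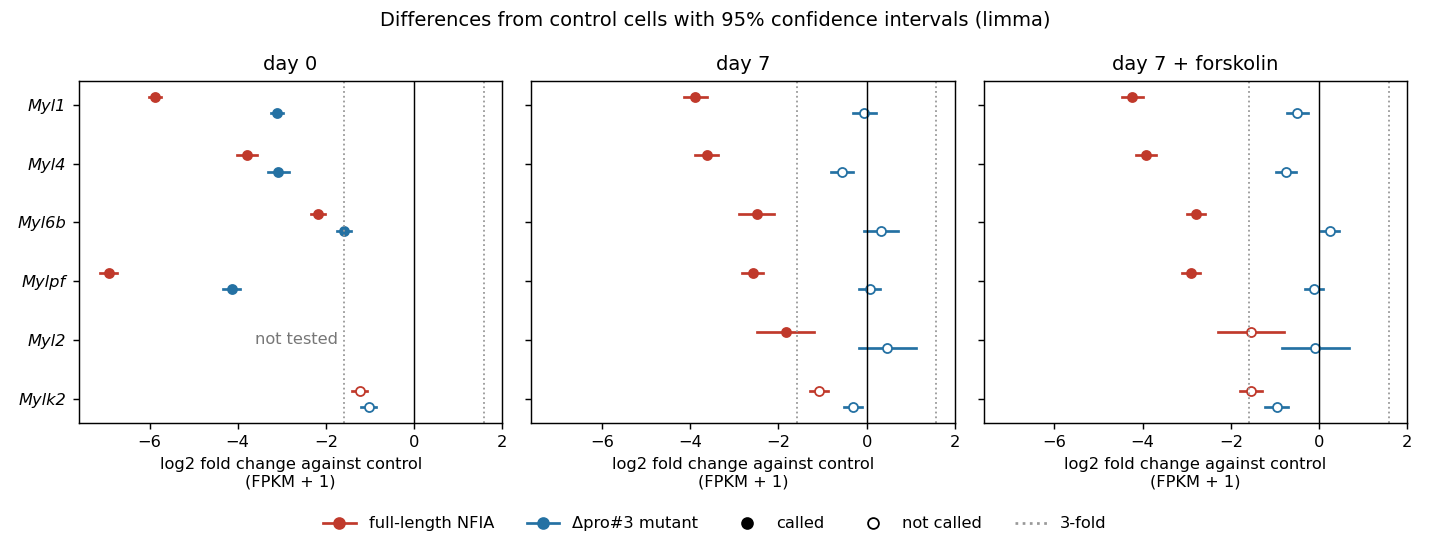
Log2 fold change in FPKM + 1 against control cells (horizontal axis) for 6 members (rows) with full-length NFIA (red) and the Δpro#3 mutant (blue) at day 0, day 7 and day 7 with forskolin; lines are 95% confidence intervals of limma, filled points were called, and dotted lines mark 3-fold. With full-length NFIA, Myl1 is at −5.87, −3.89 and −4.23, whereas with the mutant it moves from −3.10 at day 0 to −0.0493 at day 7 and −0.49 after forskolin.

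RNA came from whole cultures, in which fewer muscle fibers and less light chain RNA per fiber cannot be told apart. The summed FPKM of the 7 muscle markers at day 7 was 4945 to 5715 in control cells, 1114 to 1463 with full-length NFIA and 6780 to 7063 with the mutant. The 6 adipocyte markers (Fabp4, Adipoq, Plin1, Cidec, Lpl and Pparg) summed to 335 to 371, 13268 to 14750 and 602 to 1992 FPKM in the same order, with all 6 at 1 FPKM or more in each group. Within the mutant, replicate 1 was the sample with 1992. Without it, 0 of 6 members were called between mutant and control cells, and Myl4 had a difference of −0.55 (limma adjusted p = 0.00799). By the test, full-length NFIA lowered 4 of the 7 muscle markers and raised 6 of the 6 adipocyte markers at day 7, where 3.3% of all genes were called lower and 4.87% higher. With the mutant, 0 were lowered and 3 raised (Fabp4, Adipoq and Plin1), where 0.503% of all genes were called lower and 0.933% higher. Of 3 tested smooth muscle markers (Acta2, Tagln and Myh11, of 4 with Cnn1), limma called 0 with either form at day 7, with 3 (full-length NFIA) and 1 (mutant) at an unadjusted p under 0.05, and no marker of leukocytes or endothelial cells reached the filter. The part of these marker differences in the light chain values was not tested.

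The rise over 7 days was compared within each cell type in 1 limma fit of the 18 samples without forskolin (12408 genes). In control cells, Myl1 rose 47.0-fold in mean FPKM, Myl4 43.3-fold, Mylpf 9.93-fold and Myl6b 9.15-fold, from an already high level in the case of Mylpf. With the mutant, Myl1 rose 428-fold, Myl4 321-fold, Mylpf 192-fold and Myl6b 37.9-fold. With full-length NFIA, Myl1 rose 622-fold, from 29 to 11519 fragments over 3 samples, Mylpf rose 314-fold, Myl4 79.1-fold and Myl6b 8.80-fold. In control cells 5 of 6 tested members were called higher (3.65% of all genes), with full-length NFIA 4 (5.38%) and with the mutant 5 (3.91%). Myl2, counted in control and mutant cells, entered this fit only through its day 7 level, so its rise was fixed by the filter. Without it, 4 of 5 members were called higher in each cell type. Mylk2 was not called in any of the 3, with log2 fold changes of 0.47 ± 0.0829, 0.62 ± 0.0829 and 1.19 ± 0.0829 and mean FPKM 1.53-, 2.495- and 3.90-fold higher. In the mutant it was called with a pseudocount of 0.1 (1.84) and with limma-voom (1.93). Myl2 rose from 1 fragment to 176 in control cells, 26 with full-length NFIA and 285 with the mutant, and the counting intervals of these ratios relative to depth had lower ends of 54.9, 6.39 and 72.1. With full-length NFIA, Myl2 was not called on the scale of FPKM + 1 (0.93). It was called with a pseudocount of 0.1 (3.03) and with limma-voom (4.23), but these calls carry the same limit of the filter and are not counted as support.

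Whether the effect of a construct changed between day 0 and day 7 was tested in the same fit, as the day 7 difference from control minus that at day 0, at an adjusted p under 0.05 alone. For the mutant, the difference from control became less negative for 5 of 6 tested members, where 18.9% of all genes passed in this direction. The change was 4.21 ± 0.148 for Mylpf, 3.05 ± 0.136 for Myl1, 2.53 ± 0.165 for Myl4, 1.92 ± 0.205 for Myl6b and 0.72 ± 0.117 for Mylk2, with limma adjusted p-values from 4.94e-12 to 0.000104. For full-length NFIA, it became less negative for 2 members, Mylpf by 4.34 ± 0.148 and Myl1 by 1.98 ± 0.136 (limma adjusted p = 2.29e-13 and 1.34e-09), where 31.1% of all genes passed. Over the alternatives tried, the value of Myl1 ranged from 1.88 to 3.66 with full-length NFIA and from 2.98 to 3.19 with the mutant. The order of the 2 forms for Myl1 thus depended on the setting. Myl2 had −1.87 ± 0.328 (limma adjusted p = 8.11e-05), where 40.1% of all genes passed in that direction. It had been at 1 fragment in each cell type at day 0, where no effect could be measured, so this value restates the day 7 difference (−1.83). With limma-voom on fragments it was not called (−2.85, adjusted p = 0.0753). Myl4 changed by 0.16 (95% confidence interval −0.19 to 0.51) and Myl6b by −0.31 (−0.75 to 0.12). Both depended on the setting, since Myl4 passed with a pseudocount of 0.1 (0.78, limma adjusted p = 0.00223) and with limma-voom (0.87, adjusted p = 0.0143), and Myl6b passed without replicate 1 of full-length NFIA at day 7 (−0.53, limma adjusted p = 0.00603). Mylk2, at 0.15 ± 0.117, also passed with a pseudocount of 0.1 (0.60, limma adjusted p = 0.0178) and with limma-voom (0.69, adjusted p = 0.0118). Set beside the levels, full-length NFIA cells held 0.508% of the control mean of Myl1 at day 0 and 6.73% at day 7, 0.529% and 16.7% of Mylpf, 4.42% and 8.08% of Myl4, and 18.5% and 17.8% of Myl6b. Cells with the mutant held 10.6% and 96.2% of Myl1, 5.43% and 105% of Mylpf, 9.17% and 68.0% of Myl4, and 30.1% and 125% of Myl6b. The 2 effects share the control samples.

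With these unequal changes, the makeup of the light chains differed between cell types, which is given as shares of summed FPKM with no test. In control cells at day 0, Myl1 made up 59.9% ± 1.06 of the 4 essential chains among the members, Myl4 24.1% ± 1.53 and Myl6b 16.0% ± 0.575 (SD, n = 3). With full-length NFIA at day 0, Myl6b made up 68.2% ± 1.502 and Myl1 7.10% ± 2.25, of a summed level that was only 5.93 FPKM. With the mutant, Myl6b made up 36.04% ± 3.31 and Myl1 47.4% ± 3.45. By day 7, Myl1 led the 4 sarcomeric essential chains in each cell type, with 70.2% ± 1.03 in control cells, 63.3% ± 1.43 with full-length NFIA and 75.2% ± 1.16 with the mutant. Myl4 held 26.1% ± 1.04, 28.1% ± 0.617 and 19.7% ± 1.13, and its share in mutant samples (18.6% to 20.9%) did not overlap that in control samples (25.2% to 27.2%). Myl6b held 3.66% ± 0.0278, 8.57% ± 1.26 and 5.08% ± 0.0393. Of Mylpf and Myl2 together, Mylpf was 97.6% or more in the mean of every group. With Myl9, Myl12a and Myl12b counted in, Mylpf was 24.5% of the regulatory chains in control cells, 0.273% with full-length NFIA and 1.96% with the mutant at day 0, and 78.5%, 59.2% and 77.5% at day 7.

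The ratio of Myl1 to Mylpf, the fast essential and regulatory chains, was 0.241 ± 0.00880 in control cells and 0.229 ± 0.0368 with full-length NFIA at day 0, whose samples overlapped, and 0.474 ± 0.0674 with the mutant. At day 7 it was 1.14 ± 0.0463 in control cells, 1.05 ± 0.0902 with the mutant, which overlapped, and 0.458 ± 0.00633 with full-length NFIA, below every other sample of that day. With forskolin, full-length NFIA cells were at 0.452 ± 0.0149 and control cells at 1.13 ± 0.0231, whereas the mutant was at 0.869 ± 0.0947.

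**Figure D3:**
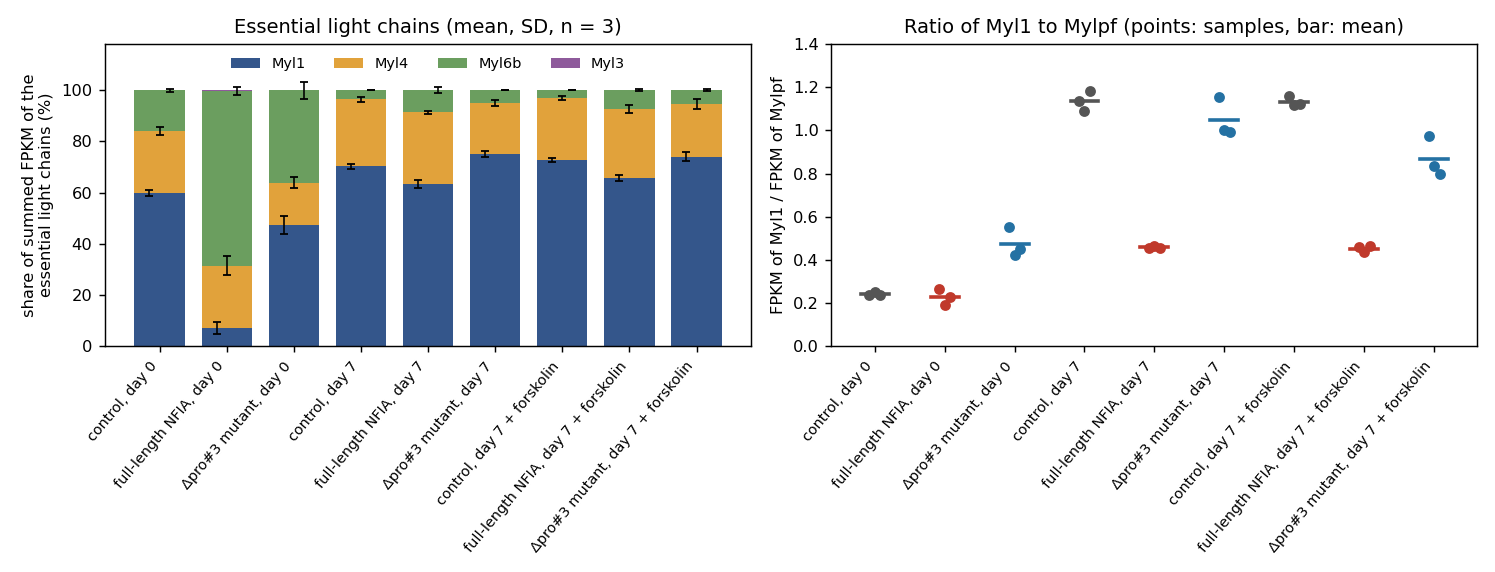
Left, shares of Myl1, Myl4, Myl6b and Myl3 in the summed FPKM of the essential light chains, as means with SD (n = 3) for the 9 groups; right, the ratio of Myl1 to Mylpf FPKM in each sample with the mean. Myl6b is the widest part of the bar with full-length NFIA at day 0 (68.2%), and at day 7 the ratio with full-length NFIA (0.458) lies below those of control (1.14) and mutant cells (1.05).

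Myl6, the essential chain of smooth muscle and nonmuscle myosin, was the most abundant essential chain at day 0, with 1049 ± 33.9 FPKM in control cells, 942 ± 36.7 with full-length NFIA and 1052 ± 18.9 with the mutant (SD, n = 3). With Myl6 counted in, Myl1 made up 6.89% of essential chains in control cells at day 0 and 60.9% at day 7, against 0.0439% and 23.4% with full-length NFIA and 0.806% and 63.7% with the mutant. Myl6 remained the most abundant essential chain with full-length NFIA at day 7 (63.0%), against 13.2% in control cells and 15.3% with the mutant. Of 7 further light chain genes (Myl5, Myl6, Myl7, Myl9, Myl10, Myl12a and Myl12b), 6 were in the files and 4 were tested. Full-length NFIA lowered 1 of the 4 at day 0 and at day 7, in both cases Myl9, the regulatory chain of smooth muscle, by −1.84 ± 0.0395 and −2.29 ± 0.186 (limma adjusted p = 1.95e-11 and 1.51e-06), beside 2.78% and 3.3% of all genes. The mutant lowered 0 of 4 at day 0 by limma's call, where 3 had an unadjusted p under 0.05 (Myl9 at −0.71 ± 0.0395, Myl12a at −0.26 and Myl12b, which was higher, at 0.21), and Myl9 at day 7 (−1.87 ± 0.186, limma adjusted p = 3.43e-05), beside 1.32% and 0.503% of all genes. At day 7, Myl9 was at 29.2 ± 4.17 FPKM with the mutant, against 109 ± 2.47 in control cells and 22.1 ± 6.64 with full-length NFIA. Myl12a and Myl12b, the regulatory chains of nonmuscle myosin, had log2 fold changes of −1.49 ± 0.0741 and −0.43 ± 0.0512 with full-length NFIA at day 7 and 0.23 ± 0.0741 and 0.48 ± 0.0512 with the mutant. For Myl6 these were −0.26 ± 0.0650 and 0.10 ± 0.0650.

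Other genes of the light chain system and of the thick filament were taken from lists written for this purpose. Of 16 other kinases, calmodulins and phosphatase subunits that act on light chains, 16 were tested at day 0 and 15 at day 7. Full-length NFIA lowered 1 at each time, Ppp1r14b at day 0 (−1.64 ± 0.0485) and at day 7 Mylk4, a kinase related to Mylk2, from 19.0 ± 1.25 to 4.78 ± 2.16 FPKM (−1.85 ± 0.200, limma adjusted p = 1.33e-05). It raised none. These counts, 1 of 16 and 1 of 15, are set beside 2.78% and 3.3% of all genes called lower. The mutant raised Ppp1r14a at both times, by 2.17 ± 0.168 and 1.77 ± 0.259 (limma adjusted p = 9.91e-07 and 0.000367), and lowered none, beside 0.859% and 0.933% of all genes called higher. At day 0, Ppp1r14a may have entered the test only through the cells with NFIA, where it was higher, so its direction there is not counted as support. Ppp1r14a and Ppp1r14b code for inhibitors of the phosphatases and were named after their values were seen. Mylk4 was at 20.4 ± 2.10 FPKM with the mutant at day 7.

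The sarcomeric heavy chains, which the light chains bind, fell in 3 of 3 tested at day 0 and 8 of 8 at day 7 with full-length NFIA, of 9 in the list, beside 2.78% and 3.3% of all genes. The largest changes at day 7 were those of Myh7, the slow and ventricular heavy chain (97.9 to 5.20 FPKM, −4.01 ± 0.111), Myh8, the perinatal one (359.6 to 24.1 FPKM, −3.86 ± 0.128), and Myh6, the atrial one (10.97 to 0.671 FPKM, −2.83 ± 0.0979), with limma adjusted p-values from 7.50e-10 to 2.94e-09. With the mutant, 2 of 3 were called lower at day 0, whereas at day 7, 1 of 8 was called higher (Myh2, the fast type of oxidative fibers, by 1.64 ± 0.180, named after its value was seen) and none lower. Over all genes, the mutant had 1.32% called lower at day 0, and 0.933% higher and 0.503% lower at day 7. Myh7 was at 42.8 ± 3.34 FPKM with the mutant (−1.18 ± 0.111) and Myh8 at 251 ± 26.3 (−0.52 ± 0.128). At day 7, the heavy chains had a median log2 fold change of −2.74 (full-length NFIA) and −0.40 (mutant).

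Partners of the thick filament, which hold the myosin in register or help to fold it, were called lower with full-length NFIA in 7 of 7 tested at day 0 and 8 of 9 at day 7, and with the mutant in 6 of 7 and 0 of 9 by limma (6 at an unadjusted p under 0.05, 3 of them lower and 3 higher). The shares of all genes called lower were again 2.78% and 3.3% with full-length NFIA and 1.32% and 0.503% with the mutant, and they hold for the transcription factors as well. The largest changes with full-length NFIA at day 7 were those of Mybpc1 and Mybpc2, the slow and fast myosin binding proteins C, at −5.01 ± 0.103 and −4.45 ± 0.0983, and of Mybph at −3.32 ± 0.117 (limma adjusted p = 1.46e-10, 1.89e-10 and 3.38e-09). These 3 had values of −1.06, −1.22 and −0.75 with the mutant. Among 9 muscle transcription factors, full-length NFIA lowered Myog and Myf5 of 8 tested at day 0 and 4 of 9 at day 7, led by Myf6 (126 to 0.544 FPKM, −6.35 ± 0.122), Myog (1275 to 199.6 FPKM, −2.69 ± 0.195) and Myf5 (27.04 to 3.74 FPKM, −2.57 ± 0.104), with limma adjusted p-values from 1.09e-10 to 6.46e-07. The mutant lowered Myog at day 0 (−3.24 ± 0.0618) and Myf6 at day 7, at 35.97 ± 1.55 FPKM (−1.77 ± 0.122, limma adjusted p = 3.58e-06). Myog was at 489 ± 124 FPKM with the mutant (−1.41 ± 0.195, limma adjusted p = 0.000259), under 3-fold. The median of the transcription factors with the mutant was −0.96 at day 0 and −0.24 at day 7.

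**Figure D4:**
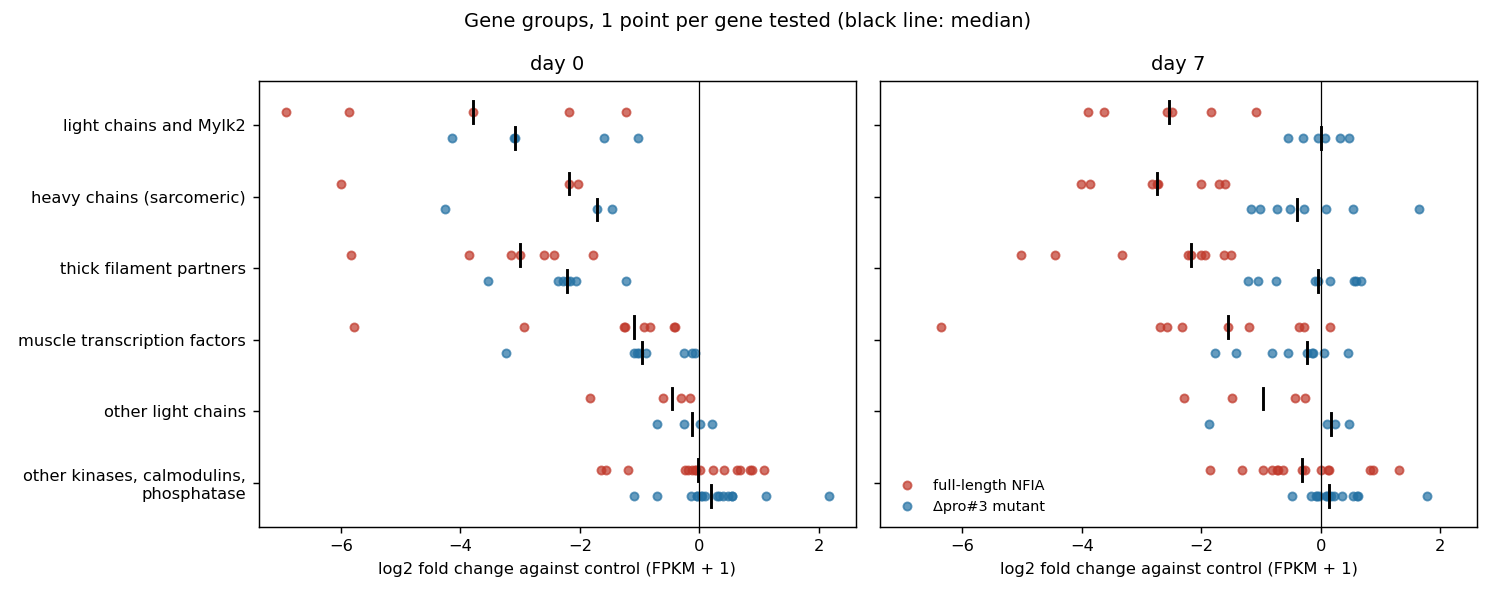
Log2 fold change in FPKM + 1 against control cells for each tested gene of 6 groups (rows) at day 0 and day 7, with full-length NFIA in red and the Δpro#3 mutant in blue; a black line is the median of the group. The light chains with Mylk2 have medians of −3.79 and −3.08 at day 0, and of −2.54 and 0.00956 at day 7.

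Forskolin for 4 h was compared with no forskolin within each cell type at day 7 (18 samples, 12245 genes). None of 6 tested members was called by limma in control cells (0.392% of all genes called), with full-length NFIA (0.743%) or with the mutant (0.588%), and limma-voom also called 0 in each. At an unadjusted p under 0.05, there were 0, 4 and 3 members. Mylk2 was the member whose response differed between cell types by the test. It was at 4.18, 4.75 and 3.92 FPKM with forskolin in control cells, against 3.99, 4.49 and 3.85 without it, which overlapped. With full-length NFIA, it was at 0.786, 0.737 and 0.914 FPKM against 1.52, 1.17 and 1.54, and with the mutant at 2.20, 1.35 and 1.63 against 3.45, 2.95 and 3.01, with no overlap in either. The log2 fold changes were −0.41 ± 0.105 (limma adjusted p = 0.00333) and −0.61 ± 0.105 (limma adjusted p = 0.000275), against 0.0476 ± 0.105 in control cells. The median of all genes moved by −0.15 with full-length NFIA on this scale, and by −0.0413 after median-ratio scaling. The response of Mylk2 differed from that of control cells by −0.46 ± 0.148 with full-length NFIA (limma adjusted p = 0.0279) and by −0.66 ± 0.148 with the mutant (limma adjusted p = 0.0154). It was the single member of 6 to pass in each, where 30.6% and 4.97% of all genes passed in either direction. With full-length NFIA this call was lost when any of 6 single samples was left out (limma adjusted p = 0.0571 to 0.0740). Of the light chains, Myl4 and Myl6b with full-length NFIA had log2 fold changes of −0.35 ± 0.113 and −0.46 ± 0.153 (limma adjusted p = 0.0140 and 0.0171), under 3-fold, and Myl1 with the mutant had −0.34 ± 0.116 (limma adjusted p = 0.0314), from 3698 to 2937 mean FPKM. The samples of Myl6b with and without forskolin overlapped. Over the alternatives tried, the adjusted p-values of limma or limma-voom reached 0.127 for Myl4, 0.117 for Myl6b and 0.156 for Myl1.

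The cell types were also compared with each other after forskolin, where the median of all genes was at −0.17 for full-length NFIA against control (−0.00759 after median-ratio scaling). Full-length NFIA lowered 4 of 6 tested members (3.77% of all genes called lower), by −4.23 ± 0.107 for Myl1, −3.93 ± 0.101 for Myl4, −2.91 ± 0.0927 for Mylpf and −2.79 ± 0.0953 for Myl6b. Myl2 and Mylk2 stood at −1.54 ± 0.339 and −1.54 ± 0.114, just short of 3-fold, and both were called with a pseudocount of 0.1. For the mutant, limma and limma-voom called 0 of 6 (0.685% of all genes called lower), with 4 at an unadjusted p under 0.05. These were Mylk2 at −0.96 ± 0.114, Myl4 at −0.74 ± 0.101, Myl1 at −0.49 ± 0.107 and Myl6b at 0.25 ± 0.0953, and the adjusted p-value of the last was 0.0511 (limma). Against full-length NFIA, 4 of 6 members were called higher with the mutant (2.89% of all genes), by 2.80 for Mylpf to 3.74 for Myl1.

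The pattern of each member over the 9 groups was set beside those of 8260 other genes with a mean of at least 10 FPKM in some group, by Pearson correlation of the group means of log2(FPKM + 1). This is a description over 9 points that share constructs and days, and Myl3 was left out as too low. The genes most like Myl1 were Atp2a1 (0.998), the calcium pump of fast fibers, Tnni2 (0.997), the fast troponin I, and Myom2 (0.997). Those most like Mylpf were the cardiac and skeletal actins Actc1 (0.997) and Acta1 (0.996) and the slow troponin I Tnni1 (0.996). Those most like Myl4 were Klhl41 (0.997), Ybx3 (0.997) and Trim72 (0.997), and for Myl6b Btbd1 (0.997), Neb (0.996) and Ndrg2 (0.995). Myl2 came closest to Myot (0.996), Pdcd5 (0.994) and Trdn (0.989). Mylk2 stood apart from the chains, with Mef2a (0.982), Klf5 (0.978) and Neurl1a (0.962). Among the members, Myl1 and Myl4 had 0.992 and Myl1 and Mylpf 0.988, whereas Mylk2 had 0.703 to 0.805 with the members other than Myl3.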

How the data were processed

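RNA-seq of 27 C2C12 samples was used, grouped by the construct, day, treatment and replicate in the labels. The authors prepared stranded libraries, aligned reads to mm9 with STAR 2.5.3a, kept unique reads, counted fragments on the matched strand and deposited FPKM per gene, with no log scale and no scaling between samples. The gene annotation is not given in the sources used here. Unique mapping can lower genes with close copies. The members and gene lists were chosen with earlier results of these data known.

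log2(FPKM + 1) was fitted with limma 3.58.1 (R 4.3.3), with a trend, over genes with a mean of at least 0.5 FPKM, in 9 samples per time point or 18 over both. Tests were 2-sided. Named genes were the 7 members, the tested light chains that are not members, the 3 largest called changes per list with full-length NFIA at day 7, and the 3 most similar patterns. Genes outside this rule and named as examples were chosen after their values were seen. Gene groups were markers of muscle cells, adipocytes, smooth muscle, leukocytes and endothelial cells, and a further marker list is not reported here. Replicate samples differed by 1.52 to 14.2 chi-square per gene (27 pairs), so none was a copy. Replicate 1 stood apart in 3 groups. With forskolin, its pairs were at 12.8 and 14.2 with full-length NFIA (3.27 without it) and at 11.3 and 13.3 with the mutant (5.76 without it). In mutant cells at day 7 without forskolin they were at 13.6 and 13.3 (5.66 without it). Steps were tested on simulated data. The depth of 9567769 to 27230965 fragments limits Myl2 and Myl3. Alternatives were a pseudocount of 0.1, other filters, median-ratio scaling, no trend, a replicate block, limma-voom, other sets of samples in a fit and each sample left out.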

Additional observations from a re-analysis of the deposited data

Results flagged for a closer look

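For the Δpro#3 mutant, the difference from control cells changed between day 0 and day 7 for 5 of 6 members, and this difference was itself tested. Of all genes, 18.9% passed in this direction. It was 4.21 for Mylpf, 3.05 for Myl1, 2.53 for Myl4, 1.92 for Myl6b and 0.72 for Mylk2 on the log2(FPKM + 1) scale, with limma adjusted p-values from 4.94e-12 to 0.000104. For full-length NFIA, it was 4.34 for Mylpf and 1.98 for Myl1 (limma adjusted p = 2.29e-13 and 1.34e-09). Over the alternatives tried, Myl1 ranged from 1.88 to 3.66 with full-length NFIA and from 2.98 to 3.19 with the mutant, so the order of the 2 forms depended on the setting. Myl2 had −1.87, but at 1 fragment in each cell type at day 0 no effect could be measured there, so this restates its day 7 difference (−1.83). Here 31.1% of all genes passed higher and 40.1% lower, against which 2 of 6 and 1 of 6 members are near or below the share over all genes. Myl1 in cells with full-length NFIA at day 0 rested on 29 fragments over 3 samples, and with limma-voom on fragments Myl2 had an adjusted p of 0.0753. The response of Mylk2 to forskolin differed from that of control cells by −0.46 with full-length NFIA (limma adjusted p = 0.0279) and by −0.66 with the mutant (limma adjusted p = 0.0154). Of all genes, 30.6% and 4.97% passed, so 1 of 6 with full-length NFIA is below that share, and this call was lost when any of 6 single samples was left out (limma adjusted p = 0.0571 to 0.0740).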

How the results depend on the processing

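Of the 19 counts of members called, 16 stayed within 1.5 times under each alternative tried. The exceptions were as follows. For the change in the effect of full-length NFIA between day 0 and day 7, a pseudocount of 0.1 gave 5 members in place of 3, with Myl4 and Mylk2 added. For the difference in forskolin response, a minimum mean of 5 FPKM, which leaves out Mylk2, gave 0 in place of 1 for both full-length NFIA and the mutant. Leaving out each sample in turn gave 0 to 3 for full-length NFIA. Mylk2 was lost there without replicate 1 or 3 of control cells, replicate 1 or 3 of full-length NFIA, or, with forskolin, replicate 2 of control cells or of full-length NFIA, with adjusted p-values of limma from 0.0571 to 0.0740. Small differences changed sign. Myl1 in mutant against control cells at day 7 was 0.0115 after median-ratio scaling and −0.12 to 0.0556 with each sample left out. With each sample left out, Myl2 in mutant against control cells after forskolin ranged from −0.57 to 0.17, and the forskolin response of control cells from −0.36 to 0.17 for Myl2, −0.0931 to 0.0134 for Myl4 and −0.0145 to 0.10 for Mylk2. Replicate numbers did not pair the samples (correlation of deviations −0.173 to 0.131 over 27 pairs of same-numbered samples), and with the replicate block the counts were those of the fit without it (4, 4 and 2 at day 0 and 5, 0 and 5 at day 7). Shares moved by more than 1 SD in 27 of 27 cases with the chains outside the sarcomere counted in, and in 15 of 27 as shares of fragments. Over all genes, a pseudocount of 0.1 called 1082 at day 0 and 1569 at day 7 with full-length NFIA, in place of 634 and 1007, and limma-voom called 1131 and 1640.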
